A study of Rattus norvegicus with 2 samples.

Results

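The alpha, beta and gamma tubulins studied here are 10 of the 9894 genes listed in a tag profile of cultured rat cortical neurons, and their messages were compared between a control library and a PIWIL1 RNAi library. The genes were taken from a fixed set of symbols, matched through the RefSeq identifier of each gene: 4 alpha tubulins (Tuba1a, Tuba1b, Tuba1c and Tuba4a), 5 beta tubulins (Tubb2a, Tubb2b, Tubb3, Tubb4b and Tubb5) and 1 gamma tubulin (Tubg1). Beyond a listing in either library, the rule uses no measured value, but the genes were chosen with earlier results of these data known. Neurons were dissociated from the cortex of Sprague-Dawley rats at embryonic day 16 and electroporated in suspension with a plasmid. They were collected after 48 h in a medium that contained serum and B27. The control library came from neurons given a control plasmid. The RNAi library came from neurons given a plasmid for RNA interference against PIWIL1, a member of the PIWI family of proteins that act with small RNAs. Each group was 1 library, so no difference described here has a replicate check, and every test compares these 2 libraries and not the conditions.

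Alpha and beta tubulin join as a dimer, and the dimers assemble end to end into the wall of the microtubule, while gamma tubulin sits in a ring complex from which new microtubules start. Vertebrates carry several genes for alpha and for beta tubulin whose proteins differ mainly at their acidic tails, and a cell type uses its own mixture of these isotypes. In the embryonic cortex Tuba1a, Tubb2b and Tubb3 are best known from young neurons, Tubb3 as a common marker of them, whereas Tuba1b, Tubb4b and Tubb5 are used widely, dividing cells included.

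In digital gene expression profiling a transcript is cut at CATG and read as a tag of 21 bases that begins with these letters. The tag count of a gene sums the copies of all its tags, and TPM is that count scaled to the clean tags of the library (TPM standing for tags per 1000000), with no division by transcript length. CATG sites are numbered here from the 3′ end of the transcript, and 62.7% of all copies on genes in the control library and 64.6% in the RNAi library lay at site 1. Tuba1b, Tubb4b and Tubg1 were read mainly through the tags below, which are shown because they carry most of the copies of these genes, with the CATG in capitals.
Tuba1b site 1: CATGacgtctcaaagtaaaag
Tubb4b site 1: CATGtccactgtgcatttgct
Tubg1 site 1: CATGcactgtctgttggctta

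Tubulin genes are so alike that some tags differ by a single base. The tag that holds the copies of Tuba1a and that of Tuba1b at site 12 are a pair of this kind, shown because the whole count of Tuba1a rests on the base in capitals (T13C, the base of Tuba1a first, counted from 1 at the 5′ end of the tag). Both begin at the ATG where translation starts.
Tuba1a site 8: catgcgtgagtgTatctccat
Tuba1b site 12: catgcgtgagtgCatctccat

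The beta tubulins likewise carry CATG at matching places of their coding sequence. The first set below held the most copies among such places, and the second begins at the start codon of each gene. Capitals mark positions at which the tags of all beta tubulins in that set differ, and the sets are shown because they allow different genes to be compared at the same place of the message.
Tubb5 site 2: catgaaTgacctCgtCtctga
Tubb3 site 1: catgaaCgacctGgtGtctga
Tubb3 site 14: catgAgGgaGatcgtgcacAt
Tubb2b site 17: catgCgAgaGatcgtgcacAt
Tubb5 site 10: catgAgGgaAatcgtgcacAt
Tubb4a site 14: catgCgGgaAatcgtgcacCt

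The control library listed 9496 genes with 1947600 copies, and the RNAi library 9297 genes with 1865913 copies, out of 3386865 and 3303360 clean tags. The median log2 ratio of TPM (RNAi over control) over the 8899 genes listed in both was -0.08. Genes were tested on their copies (Fisher's exact test, two-sided, with Benjamini-Hochberg adjustment over all genes), and a call required an FDR at or below 0.05 and a log2 ratio of 0.58 or more in size. By this rule 591 genes were lower and 293 higher in the RNAi library, a split that became 459 and 398 with TMM scaling. No gene was listed under the symbol Piwil1, so the knockdown itself was not checked in these libraries. Of the markers of cell types, all 13 neuronal genes were listed, with a summed 4337.93 TPM in the control and 3874.54 TPM in the RNAi library. Radial glia and progenitor genes summed to 1024.55 and 1311.1 TPM (7 of 8 listed). The higher sum was that of Vim, an intermediate filament gene shared with other cell types (789.52 and 1127.34 TPM), while the other 6 genes of the list had a lower TPM and the list's median log2 ratio was -0.29. Genes of proliferating cells summed to 442.01 and 313.63 TPM (3 of 5), Pcna of the replication fork among them being called lower (719 and 451 copies), and fibroblast or meningeal genes to 546.21 and 523.1 TPM (5 of 5). Astrocyte genes summed to 88.57 and 80.53 TPM (4 of 5), microglial genes to 14.17 and 16.04 TPM (2 of 5) and oligodendrocyte genes to 5.91 and 5.75 TPM (5 of 5), while the only endothelial gene listed, Flt1, had 0 and 2 copies. The cultures therefore held messages of dividing, progenitor and connective tissue cells beside those of neurons, and in bulk RNA fewer cells of a type cannot be told apart from less RNA per cell.

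The tubulin mixture leaned towards alpha tubulin in the RNAi library. All 5 beta tubulin genes had a lower TPM there, 3 of the 4 alpha tubulin genes a higher one, and so did gamma tubulin. None of the 10 genes passed both the FDR and the ratio threshold in either direction, against 5.97% of all genes called lower and 2.96% called higher. At the FDR alone, 5 were lower (Tuba1a, Tubb2b, Tubb3, Tubb4b and Tubb5; 9.53% of all genes) and 2 were higher (Tuba1b and Tubg1; 7.14% of all genes). The median log2 ratio over the 10 genes was -0.15, beside -0.08 over all genes listed in both libraries. Together the 10 genes held 1.39% of the copies on genes in the control and 1.57% in the RNAi library. Abundant genes reach a small FDR on a small difference, because the test counts the sampling of tags as its only error.

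**Figure D1:**
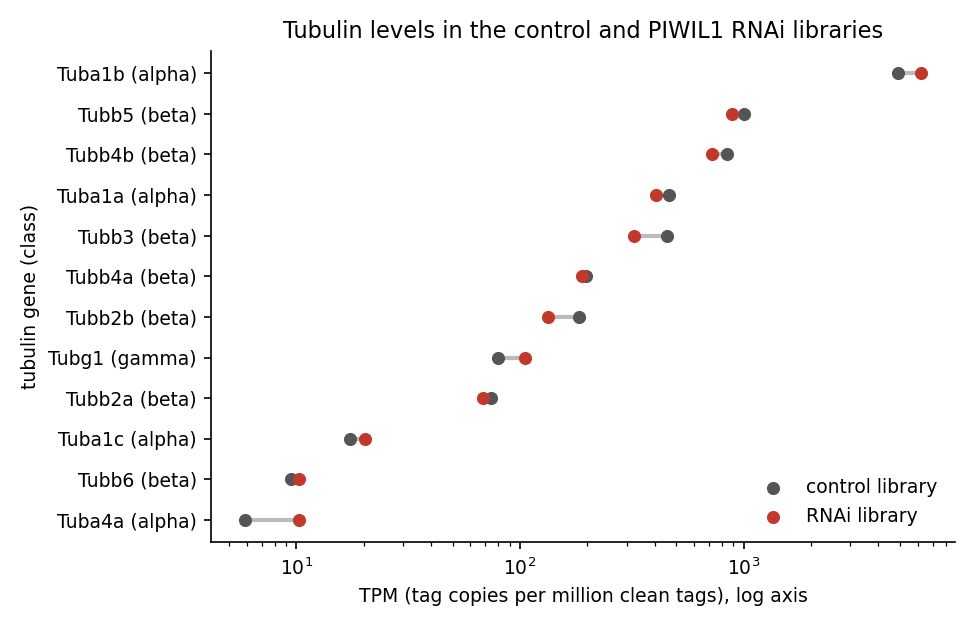
Level of the 10 tubulin genes, with Tubb4a and Tubb6 added, in TPM on a log axis for the control (grey) and PIWIL1 RNAi (red) libraries, 1 library each. The beta tubulins Tubb5, Tubb4b, Tubb3 and Tubb2b sit to the left in the RNAi library, and Tuba1b and Tubg1 to the right.

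Among the alpha tubulins, Tuba1b, a broadly expressed isotype, held most of the tag copies. It had 16568 copies in the control library (4891.84 TPM) and 20469 in the RNAi library (6196.42 TPM), which made it the gene with the 5th most copies in the control and the 3rd most in the RNAi library. The log2 ratio of TPM was 0.34, with a 95% interval of 0.31 to 0.37 and an FDR of 7.51e-130 (Fisher's exact test), a level 26.7% higher in the RNAi library and below the ratio threshold. After a correction for tag ends, described with the processing, the log2 ratio of Tuba1b was 0.20. The 95% intervals of log2 ratios given here are exact and cover counting error only, since copies made by amplification do not count separate molecules.

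Tuba1a, the alpha tubulin best known from migrating neurons, had the opposite direction, with 1573 copies (464.44 TPM) in the control and 1335 copies (404.13 TPM) in the RNAi library. Its log2 ratio was -0.20 (-0.31 to -0.09), and Fisher's exact test gave an FDR of 0.0103. The RefSeq table places Tuba1a next to Tuba1b on the same chromosome, with no other protein-coding gene between them. Nearly all of Tuba1a was read at site 8, the start codon tag shown above, with 1569 and 1317 copies, and no tag of any other site was listed. The Tuba1b tag that differs from it by T13C had 49 and 41 copies. Every listed tag stood under a single gene, so how reads of sequence shared between the alpha tubulins were handled cannot be seen in these tables. The median log2 ratio over all other genes differed by tag end, from -0.67 for GT and TG to 1.91 for 13 or more A. Tags that end in AT, as that of Tuba1a does, had a median log2 ratio of -0.39 over all other genes. After the correction for tag ends the log2 ratio of Tuba1a was 0.10, which turns its direction.

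The other alpha tubulins had few copies. Tuba1c, a close relative of Tuba1b, had 59 and 67 copies (17.42 and 20.28 TPM, log2 ratio 0.22, -0.31 to 0.75). Tuba4a, which is known from mature neurons and platelets, had 20 and 34 copies (5.91 and 10.29 TPM), a log2 ratio of 0.80 whose interval (-0.04 to 1.68) included 0 and whose FDR in Fisher's exact test was 0.165. At these depths a difference smaller than such an interval could not be detected for either gene.

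The beta tubulins were lower in the RNAi library to different extents. Tubb3, the neuronal class III isotype, had 1538 copies (454.11 TPM) in the control and 1068 (323.31 TPM) in the RNAi library. The log2 ratio was -0.49 (-0.60 to -0.38) and the FDR 2.3e-14 in Fisher's exact test, the lowest ratio among the 10 genes. Tubb2b, also prominent in young neurons, followed with 620 and 441 copies (183.06 and 133.5 TPM), a log2 ratio of -0.46 (-0.63 to -0.28) and, in the same exact test, an FDR of 2.94e-05. The intervals of these 2 genes overlapped each other and lay below those of Tubb4b and Tubb5, except that the interval of Tubb2b met that of Tubb4b.

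Tubb5, the most copied beta tubulin and a widely expressed one, had 3390 copies (1000.93 TPM) in the control and 2914 (882.13 TPM) in the RNAi library. Its log2 ratio was -0.18 (-0.25 to -0.11), and Fisher's exact test gave 0.000256 as the FDR. Tubb4b, another widely expressed isotype that also builds cilia, had 2853 and 2390 copies (842.37 and 723.51 TPM), with a log2 ratio of -0.22 (-0.30 to -0.14) and 2.43e-05 as the FDR of the exact test. Tubb2a, the close relative of Tubb2b, had 252 and 226 copies (74.41 and 68.42 TPM), and its log2 ratio of -0.12 had an interval (-0.39 to 0.14) that included 0. After the correction for tag ends it was -0.36, with 0.1 as the FDR of Fisher's exact test. In the RefSeq table only the gene Tubb2al1 lies between Tubb2a and Tubb2b. The order of the beta tubulins by copies, Tubb5, Tubb4b, Tubb3, Tubb2b and Tubb2a, was the same in both libraries. With TMM scaling, which raises every log2 ratio, Tubb5 (-0.09) and Tuba1a (-0.11) no longer passed the FDR, and Tubb3 (-0.40), Tubb2b (-0.36) and Tubb4b (-0.12) did.

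Markers of neurons varied beside Tubb3 and Tubb2b. Of the 13 neuronal genes, 2 were called lower (5.97% of all genes) and none higher (2.96% of all genes). The 2 were Snap25 of the synaptic fusion machinery (918 and 545 copies) and the RNA-binding protein gene Elavl3 (125 and 75 copies). At the FDR alone, 5 of the 13 were lower (9.53% of all genes) and 1 was higher (7.14% of all genes). The 3 with the most copies differed in direction: Stmn2, a stathmin that binds tubulin dimers, had 7484 and 5678 copies, the growth cone gene Gap43 had 2670 and 3541, and doublecortin (Dcx) had 1337 and 1365. The summed neuronal markers were thus lower, and by TPM 8 of the 13 were lower. The other 5 were higher, among them Gap43 and, by little, Dcx (log2 ratio 0.07). The part of neuron number in the tubulin ratios was not tested.

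Gamma tubulin had more copies in the RNAi library. Tubg1 had 271 copies (80.01 TPM) in the control and 349 (105.65 TPM) in the RNAi library, a log2 ratio of 0.40 (0.17 to 0.64), with 0.00279 as the FDR of Fisher's exact test. Its site 1 tag held 257 and 335 of these copies and ended in TA, a class with a median log2 ratio of 0.04 over other genes. Of Tubg2, the neighbouring second gamma tubulin gene, 13 and 7 copies were read, too few to show a difference (log2 ratio -0.86, -2.42 to 0.57).

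**Figure D2:**
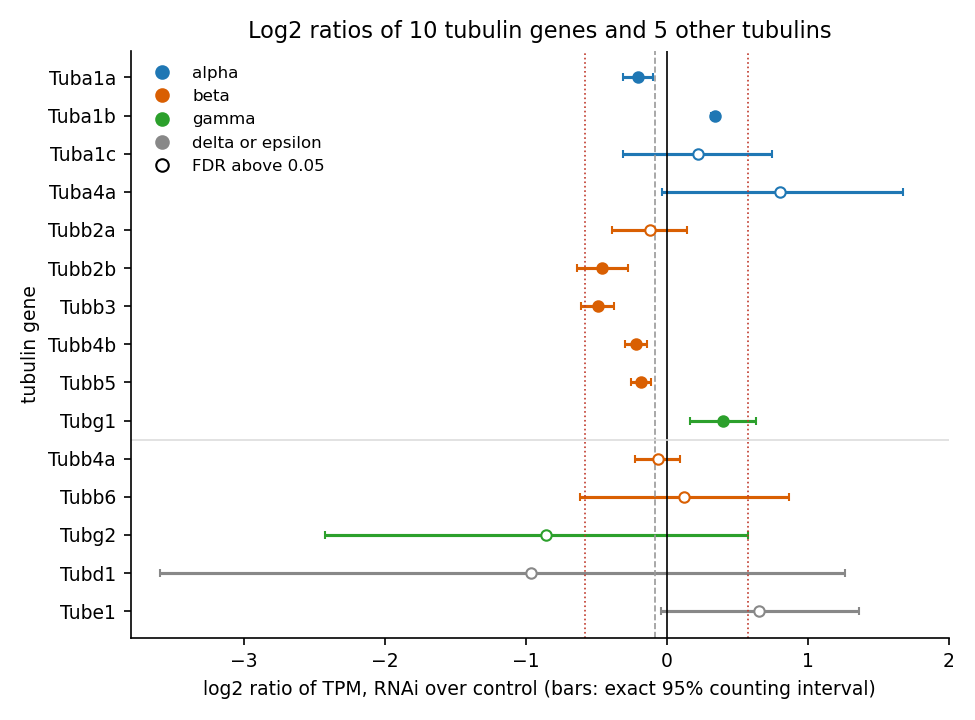
Log2 ratio of TPM (RNAi over control) for the 10 tubulin genes and, under the grey line, 5 other tubulins, with exact 95% intervals for counting error. The dashed line is the median of all genes (-0.08), dotted lines are the ratio threshold of 0.58 in each direction, and open points have an FDR above 0.05; every beta tubulin of the 10 lies left of 0, and no filled point lies outside the dotted lines.

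Summed by class, the alpha tubulins had 18220 copies in the control and 21905 in the RNAi library, a log2 ratio of 0.30 (0.27 to 0.33). The beta tubulins had 8653 and 7039 copies, a log2 ratio of -0.26 (-0.31 to -0.22). For each copy of beta tubulin there were 2.11 copies of alpha tubulin in the control and 3.11 in the RNAi library. The shift came from both sides, the higher alpha sum and the lower beta sum. The higher alpha sum was that of Tuba1b, since the other 3 alpha tubulins together had 1652 and 1436 copies (log2 ratio -0.17, -0.27 to -0.06). A tag stands for a transcript cut at a site, and the genes differ in how many sites were read, so the ratio of classes within a library is one of tag copies and not of molecules.

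Within the alpha class, Tuba1b made up 90.9% of the copies in the control and 93.4% in the RNAi library, a difference of 2.51 percentage points (95% Newcombe interval 1.98 to 3.04). Tuba1a made up 8.63% and 6.09%, a difference of -2.54 points (-3.06 to -2.02). Tuba1c (0.324% and 0.306%) and Tuba4a (0.11% and 0.155%) stayed minor. These are shares of copies read at unlike sites. At the start codon tags, Tuba1a had 1569 and 1317 copies and Tuba1b 49 and 41, so the shares do not rank these messages. After the correction for tag ends the difference was 0.45 points for Tuba1b and -0.47 points for Tuba1a. The isotype mixture of the alpha tubulins therefore differed by several points or by less than 1 point, depending on that correction.

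Within the beta class, Tubb3 made up 17.8% of the copies in the control and 15.2% in the RNAi library, a difference of -2.60 points (-3.76 to -1.44), and of -2.61 points after the correction for tag ends. Tubb2b had 7.17% and 6.27% (difference -0.90 points, -1.68 to -0.11). Tubb5 had 39.2% and 41.4% (2.22 points, 0.68 to 3.76), although after the correction its difference was 0.11 points. Tubb4b (33.0% and 34.0%) and Tubb2a (2.91% and 3.21%) had differences of 0.98 and 0.30 points with intervals that included 0. After the correction the difference was 3.54 points for Tubb4b and -0.35 points for Tubb2a, so the shares of these 2 genes depend on the tag ends as that of Tubb5 does. With Tubb4a and Tubb6 counted in the class, a choice made after seeing the data, the difference was -2.57 points for Tubb3 and 1.62 points for Tubb5.

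**Figure D3:**
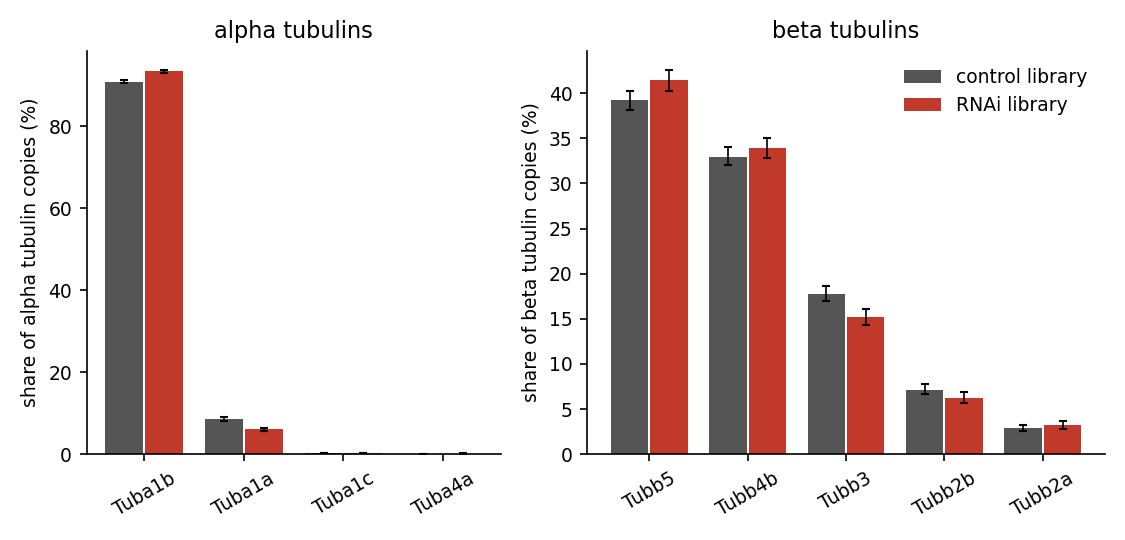
Share of each isotype among the tag copies of its class, in percent, for the control (grey) and PIWIL1 RNAi (red) libraries, with exact 95% binomial intervals for counting error. Tuba1b makes up over 90% of alpha tubulin copies in both libraries, and in the beta class the share of Tubb3 is lower in the RNAi library while that of Tubb5 is higher.

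The tags behind these counts did not all move alike. Tuba1b was read at 5 sites, and its site 1 tag, which holds most of its copies, went from 11983 to 15748 (log2 ratio 0.43, 0.40 to 0.46). Its site 2 tag had 2341 and 2617 copies (0.20, 0.12 to 0.28), its site 4 tag 467 and 473 copies, and the tag of site 3 had 1255 and 1014 (-0.27, -0.39 to -0.15). The higher count of Tuba1b thus came from sites 1 and 2, while site 3 was lower. The tag of site 3 contains a further CATG at its base 12, which is the start of the site 2 tag, so both overlap on the transcript. The site 3 tag is shown with its first CATG in capitals, and below it stand the site 2 tag and a variant of it that differs in the last base, in capitals (T21C).
Tuba1b site 3: CATGtcttctccatgtgtacc
Tuba1b site 2: catgtgtacctcttaagtttT
Tuba1b site 2, variant: catgtgtacctcttaagtttC

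The variant with T21C had 302 and 321 copies, 11.4% of the copies of both forms in the control and 10.9% in the RNAi library. Other tags with 1 base changed were rare. In all, Tuba1b had 41 such tags in the control and 46 in the RNAi library, which held 2.85% and 2.81% of its copies, the variant of site 2 included. For Tuba1b the RefSeq table lists 14 pseudogene entries by name, more than for any other of the 10 genes (5 for Tuba1a, 4 each for Tubb4b and Tubg1, 1 for Tuba4a). Whether a variant tag is a read error, an allele or a copy of another locus was not tested.

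In Tubb3 the lower count came mostly from site 1. Of its 10 principal tags (the most copied form at each site) that reached 20 copies over the libraries, every one had a log2 ratio below 0, from -0.01 at site 13 to -2.55 at site 12, where 36 and 6 copies were read, but the interval lay below 0 for 3 of them and included 0 for 7. The most copied, the site 1 tag, had 594 and 309 copies (-0.91, -1.11 to -0.71), and it ended in GA, a class with a median of -0.10 over other genes. Site 3 was lower as well (184 and 114 copies, log2 ratio -0.65, with an interval below 0), whereas site 7 had 146 and 123 copies (-0.21, -0.57 to 0.14) and site 11 had 183 and 174 (-0.04, -0.34 to 0.27). A variant of the site 13 tag with 1 base changed had 24 and 33 copies. Tags of 1 transcript share their source and are not replicates of each other.

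Tubb5 was mixed. Its most copied tag, at site 2, had 1828 and 1287 copies (log2 ratio -0.47, -0.57 to -0.37), whereas its site 1 tag had 671 copies in the control and 814 in the RNAi library (0.31, 0.17 to 0.46). Of its 8 principal tags that reached 20 copies, 4 were lower and 4 higher in the RNAi library. Read at site 1 alone, Tubb5 would be higher in the RNAi library (0.000894 as the FDR of Fisher's exact test), so the direction of this gene depends on the site read.

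Tubb4b rested on 1 tag, that of site 1, with 2713 and 2268 copies (log2 ratio -0.22), and this tag ended in CT, a class with a median of -0.24 over other genes. After the correction for tag ends the log2 ratio of Tubb4b was -0.04, and Fisher's exact test gave 0.98 as its FDR. Tubb2b had no tag nearer to the 3′ end than site 9, and 4 of its 5 principal tags were lower, site 9 with 252 and 154 copies (-0.67, -0.97 to -0.38) and the start codon tag with 175 and 118 (-0.53, -0.88 to -0.19) among them. The exception was site 15, with 115 and 127 copies. Tubb2a was read mostly at site 1 (246 and 217 copies).

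**Figure D4:**
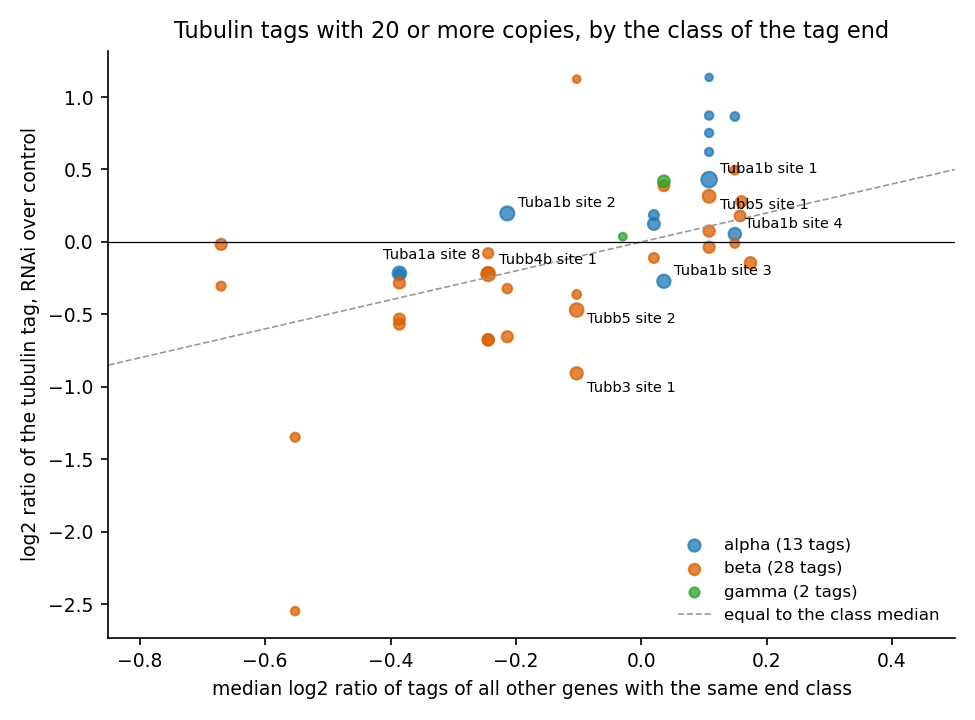
Log2 ratio of each tubulin tag with at least 20 copies (vertical) against the median log2 ratio of tags of all other genes that end alike (horizontal), larger points having more copies. The labelled tags of Tuba1b at sites 1 and 2, Tuba1a at site 8 and Tubb5 at site 1 lie above the dashed line of equality. Those of Tuba1b at sites 3 and 4, Tubb3 at site 1 and Tubb5 at site 2 lie below it, and that of Tubb4b site 1 lies on it.

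Set against the median of their own end class, 16 of the 27 principal beta tubulin tags with at least 20 copies were below it and 11 above, with a median difference of -0.13. For Tubb3 the count was 7 of 10 below and for Tubb2b 4 of 5, while Tubb5 had 4 of 8 and Tubb4b 0 of 3 below. Of the 8 alpha tubulin tags, 6 were above their class median and 2 below, both of Tuba1b. By sign alone, most counted tags of Tubb3 and Tubb2b thus stood below the median of tags with like ends, and no counted tag of Tubb4b did. These counts leave out counting error. The interval of the Tubb3 site 1 tag lay below its class median, whereas that of the Tubb2b start codon tag (-0.88 to -0.19) included its class median (-0.39). The part of the tag ends in these levels was not tested. After the correction, Fisher's exact test gave an FDR of 6.88e-10 for Tubb3 and 0.00895 for Tubb2b, with log2 ratios of -0.42 and -0.34.

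Where different beta tubulin genes share a place of the message, they could be compared with nearly the same bases. With at most 6 mismatches over the 17 bases after CATG, 11 such sets were found, and in 9 of them at least 2 genes had 20 or more copies. By the sign of the log2 ratio alone, every such gene was lower in the RNAi library in 6 of these 9. In 1 every gene was higher, and in 2 the genes differed in direction. These signs include nearly level tags. In the set counted as higher, Tubb4a had 20 copies in each library and Tubb5 had 98 and 125 (0.39, -0.01 to 0.78). In 1 set counted as lower, Tubb5 had 166 and 160 copies and Tubb3 had 62 and 56. Among tags of all other genes with at least 20 copies, 8832 of 15978 were lower. In the first set, Tubb5 site 2 and Tubb3 site 1 end in the same bases and both were lower, Tubb3 (-0.91) by more than Tubb5 (-0.47), and their intervals did not overlap. At the start codon, Tubb3 had 186 and 149 copies, Tubb2b 175 and 118, Tubb5 152 and 100 and Tubb4a 20 and 11. With Tubb2a and Tubb4b, at 2 and 0 copies each, the 6 genes had 537 and 378 (log2 ratio -0.47, -0.66 to -0.28). The tags of Tubb3, Tubb2b and Tubb5 end in AT, whose class median was -0.39, so this set stood little below its class. In the set that holds Tubb5 site 9 and Tubb3 site 11, whose tags differ by 1 base, 367 copies in the control and 363 in the RNAi library were read (0.02, -0.19 to 0.23).

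**Figure D5:**
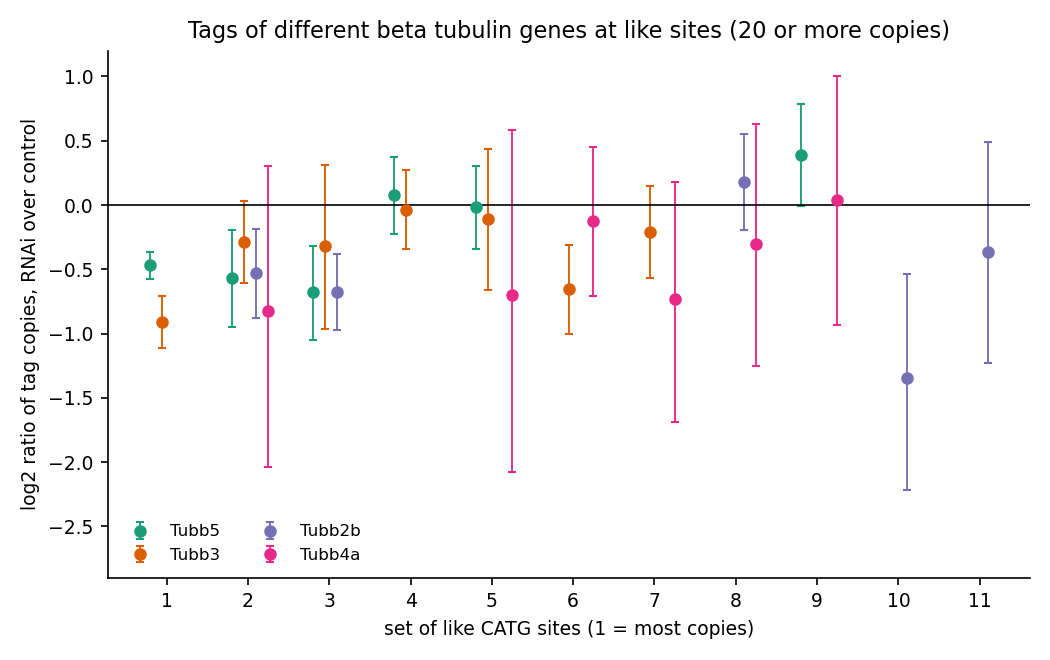
Log2 ratio of tag copies (RNAi over control) for tags of different beta tubulin genes at like CATG sites, with exact 95% intervals for counting error, for tags with at least 20 copies. Sets are numbered by their copies. Genes within sets 1, 2 and 3 lie below 0 together, and those in set 4 lie near 0. In set 9 Tubb5 lies above 0 and Tubb4a near it, and all intervals in sets 4 and 9 include 0.

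Of 10 further tubulin genes looked for, 5 were listed, and none passed the FDR. Tubb4a, a beta tubulin known from neurons and myelinating cells, had 668 and 623 copies (log2 ratio -0.06, -0.22 to 0.10), more than Tubb2b or Tubb2a. Where Tubb4a and Tubb2b were read at like sites, Tubb4a had fewer copies. At the start codon it had 20 and 11 against 175 and 118, so the totals do not rank these genes by abundance. Tubb6, a beta tubulin better known from muscle, had 32 and 34 copies. Tube1, the epsilon tubulin of centrioles, had 30 and 46 copies (0.65, -0.04 to 1.37), and delta tubulin (Tubd1) had 6 and 3.

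Genes that fold tubulin were lower where they were called. New tubulin passes from prefoldin to the CCT chaperonin and then to cofactors that join alpha to beta. Of 21 such genes 15 were listed, 3 of them called lower (5.97% of all genes) and none higher, with 6 lower at the FDR alone (9.53% of all genes) and a median log2 ratio of -0.32. Cofactor B, which holds alpha tubulin (Tbcb), had 556 copies in the control and 254 in the RNAi library, a log2 ratio of -1.09 (-1.31 to -0.88). Cofactor A, which holds beta tubulin (Tbca), had 148 and 71 copies, all on 1 tag (-1.02, -1.45 to -0.61). The chaperonin subunit gene Cct8 had 760 and 388 copies (-0.93, -1.11 to -0.76). The 3 most copied genes of the list were the chaperonin subunits Cct2 (2155 and 2064 copies), Cct5 (1646 and 1699) and Cct7 (1374 and 1038, log2 ratio -0.37). The chaperonin genes therefore ranged from nearly level to about 1 log2 unit lower, and all 3 calls were kept after the correction for tag ends, Cct8 at a log2 ratio of -0.60. In edgeR's exact test with a coefficient of variation of 0.1 assumed, the call of Tbca was lost (FDR 0.0589).

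Among enzymes that modify tubulin, the only call was not stable. Of 22 modifying enzymes and their partners 9 were listed, and 1 was called lower (5.97% of all genes): Agtpbp1, which trims glutamates from tubulin tails, with 285 and 176 copies (log2 ratio -0.66, -0.94 to -0.38). This call was lost with TMM scaling (-0.56) and after the correction for tag ends (-0.23, with 0.446 as the FDR of Fisher's exact test). Atat1, the acetyltransferase of alpha tubulin, had 404 and 383 copies, and the polyglutamylase subunit gene Tpgs2 had 356 and 282. Of 21 genes of the gamma-tubulin complex and its recruiters 13 were listed, 3 called lower (5.97% of all genes) and none higher, with a median log2 ratio of -0.18, while Tubg1 itself was higher. These were Akap9, a scaffold that brings the complex to the Golgi and centrosome (192 and 99 copies, log2 ratio -0.92, -1.28 to -0.56), the small ring component gene Mzt2b (72 and 39 copies, -0.85) and the augmin subunit gene Haus1 (43 and 19 copies, -1.14). After the correction for tag ends Akap9 and Mzt2b were still called and Haus1 was not (0.0545 as the FDR of Fisher's exact test). All 3 calls were lost in edgeR's exact test with the assumed variation of 0.1, where the FDR was 0.075 for Akap9, 0.336 for Mzt2b and 0.269 for Haus1. The most copied of the remaining genes were Tubgcp3 (87 and 75 copies) and Cdk5rap2 (85 and 81 copies), with intervals that included 0.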

How the data were processed

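The authors deposited, for each library, the tag count of every gene, its TPM (count per 1000000 clean tags), the copies of each tag and its number from the 3′ end of the gene. The submitters' processing notes name the build rn4; the program that matched tags to genes is not given in the sources used here. Symbols and gene neighbours came from a RefSeq table of a later assembly (9339 of 9894 genes had a symbol), and no coordinates are given. From the counts, Fisher's exact test (two-sided, against all other copies on genes) was run per gene with Benjamini-Hochberg adjustment, and log2 ratios were taken from TPM; the thresholds were an FDR of 0.05 and a log2 ratio of 0.58. For the correction for tag ends, each tag was put in a class by its final 2 bases. Where it ended in 3 or more A, the number of A gave the class. The amount removed was the median log2 ratio of the class minus that of all tags, both estimated on other genes. All 10 tubulin genes are named, and of the other lists every called gene; the 3 with the most copies could be named too, and were for the neuronal, tubulin and pathway lists, with Vim named for the progenitors. Tubg2, Tubd1 and Flt1 were named after their values were seen. The members and lists were chosen with earlier results of these data known. A count of 3 copies, the smallest level read as detected, corresponded to 0.886 TPM in the control and 0.908 TPM in the RNAi library. Scripts were tested on simulated data. Python 3.11.15, SciPy 1.17.1, pandas 2.3.3, R 4.3.3, edgeR 4.0.16 and DESeq2 1.42.0 were used.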

Additional observations from a re-analysis of the deposited data

How the results depend on the processing

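With 1 library per group, no replicate could be left out, and no paired analysis was possible because each group has a single sample. The number of tubulin genes that pass both thresholds was 0 in each direction with other scalings, other thresholds, 1 copy added, a minimum of 10 copies, without tags that end in 8 or more A, and edgeR's exact test. It became 2 lower (Tubb3 at -0.91 and Tubb2b at -0.67) with the most copied tag of each gene only and 1 lower (Tubb3 at -0.90) with site 1 only, where Tuba1a and Tubb2b had no value. It became 1 lower (Tubb3 at -0.61) and 1 higher (Tuba1a at 2.21) with tags within 1 mismatch of another tubulin's tag left out; Tuba1a then had 4 and 18 copies, as the construction of this alternative leaves only its variants.

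At the FDR alone, the 5 lower genes became 3 with TMM factors, 3 after the correction for tag ends, 2 with site 1 only and 0 in edgeR's exact test, where a biological coefficient of variation of 0.1, 0.2 or 0.4 was assumed; the 2 higher genes became 1 at an FDR of 0.001 and 0 with the assumed variation. Directions turned for Tuba1a after the correction (0.10) and for Tubb5 at site 1 (0.31). The summed alpha tubulins kept their direction at 0.20 after the correction, 0.37 with the most copied tag, 0.43 at site 1 and 0.34 without near tags, and the beta tubulins at -0.20, -0.38 and -0.19 under the first 3 of these. The change in share turned for Tubb5 with the most copied tag (-2.06 points) and, without near tags, for Tuba1a (0.064) and Tuba1b (-0.079); of the changes whose interval included 0, that of Tubb2a was -0.35 after the correction and that of Tubb4b -1.43 at site 1. Apart from the near tags of Tuba1a, the cause was not tested.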
